A study of Mus musculus with 6 samples.

Results

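The genes described here are 10 markers of pericytes and vascular smooth muscle, together called mural cells, measured in retinal vascular endothelial cells (VECs) sorted at P7.5. They were chosen by symbol as Pdgfrb, Cspg4, Rgs5, Kcnj8, Abcc9, Des, Anpep, Notch3, Acta2 and Myh11, and all 10 are listed among the 55487 genes of the deposited table. RNA came from 3 control animals of genotype tdTomato FL/+;Pdgf-icreER and from 3 Bmal1;CKO animals of genotype Bmal1 FL/FL;tdTomato FL/+;Pdgf-icreER, with 1 library each. Both groups therefore carried the Cre transgene and the reporter, tamoxifen was given to both on the days P0.5 through P2.5, and retinas were in general taken at ZT6, noon of the light phase, while the controls had no floxed Bmal1 allele. Cre and GFP were driven by the Pdgf-icreER transgene, and cells positive for both GFP and tdTomato were kept as VECs. All animals were on a C57BL/6 J background. The table's own numbers are kept for the libraries, so that 1, 2 and 3 are control and 4, 5 and 6 are Bmal1;CKO.

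Mural cells wrap the outside of blood vessels. Endothelial cells of a growing vessel release PDGF-B, which binds PDGFRβ on pericytes and draws them along the sprout, and contact between the cells is carried by Notch, TGF-β and angiopoietin signals. Pericytes cover retinal capillaries closely and are needed for a tight and stable vascular network, whereas smooth muscle cells ring the arterioles and hold the contractile proteins. None of the 10 genes is a marker used to define endothelium, and which cells of the sorted VEC fraction their RNA came from was not tested. In a bulk sample, fewer cells of a type and less RNA per cell cannot be told apart.

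The libraries held 71145068 to 104017800 reads on genes, and values are given as normalized counts, the reads of a gene divided by the size factor of its library. Genes with a read numbered 21598 to 27904, with the fewest in control library 1. The paper describes a control sample, tdTom1, as an outlier in its principal component plot, with no technical issue found. The columns do not name samples. Ranked from fewest to most reads on genes, control libraries 2, 1 and 3 follow the order of tdTom2, tdTom1 and tdTom3 by the paper's mapped reads. Likewise, Bmal1;CKO libraries 4, 6 and 5 follow the order of its mutant samples 1, 3 and 2. By that order control library 1 would be tdTom1, but the labels do not tie them. All 14 endothelial markers had at least 10 reads in every library, and their sum lay between 121074 and 411757 normalized counts. The 9 microglia and macrophage markers summed to 1386180 to 4103350 and also had at least 10 reads in every library. Bmal1, listed as Arntl, had 1700.4, 3489 and 2928 normalized counts in control and 1779, 2747 and 2415 in Bmal1;CKO, so the whole-gene value of the targeted gene overlapped between the groups. By ddPCR, the paper reports significantly less Bmal1 transcript in sorted mutant cells. Reads on the floxed part of the gene alone were not counted here. Control libraries 1 and 3 stood apart from the others in most of the mural genes, as described next, and results are given with and without them.

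Taken as a sum, the mural genes differed far more among the 3 control libraries than between genotypes. For Notch3 this did not hold, with a 1.77-fold span in control and a ratio of Bmal1;CKO to control mean of 0.395. Summed over the 10 genes, control libraries 1, 2 and 3 had 2638, 7668 and 49474 normalized counts, and Bmal1;CKO libraries 4, 5 and 6 had 9080.1, 4461 and 7758. Control library 1 was thus the lowest and control library 3 the highest of all 6, and control library 2 lay within the Bmal1;CKO range. Set against the summed endothelial markers, both per kilobase of exon, the mural level was 0.291%, 2.10% and 15.6% in control libraries 1, 2 and 3. In Bmal1;CKO libraries 4, 5 and 6 it was 2.48%, 2.24% and 1.82%. The 3 mutant libraries therefore lay close together, with the controls on both sides of them. Cldn5 alone made up most of the endothelial sum per kilobase in every library. It ran from 42443 of 56881 in Bmal1;CKO library 5 to 142016 of 191288 in control library 1.

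**Figure D1:**
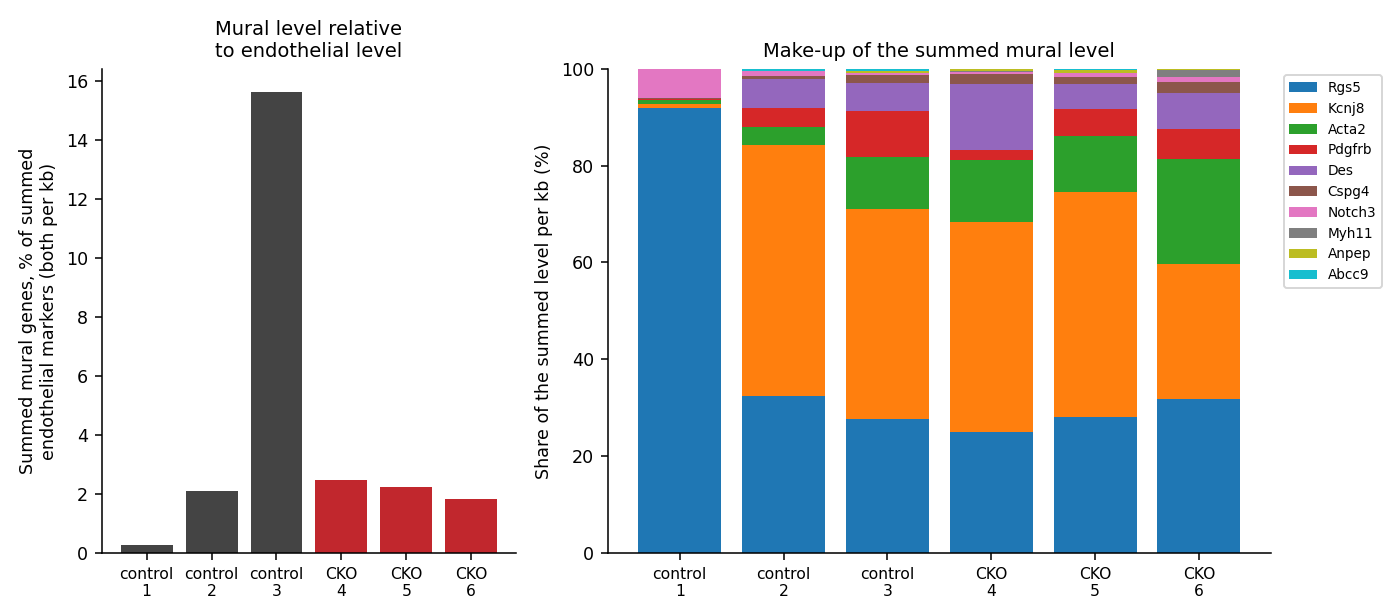
The left panel plots the summed level per kilobase of the 10 mural genes as a percent of that of the 14 endothelial markers in each library, with control in grey and Bmal1;CKO (CKO) in red. Cldn5 made up most of the endothelial level in every library. The right panel splits the summed mural level per kilobase of each library by gene in percent: Rgs5 made up 91.8% in control library 1, against 24.99% to 32.4% in the other 5 libraries.

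Of the 10 genes, 9 had their highest value in control library 3, and 8 had their lowest in control library 1, alone or tied at 0. For comparison, control library 3 was the highest in 16.8% of the 20459 genes tested. Control library 1 alone was the lowest for 6 of the 10, and for 31.8% of all tested genes. In 5 mural genes, Pdgfrb, Cspg4, Kcnj8, Acta2 and Des, picked for a control span over 200-fold, the highest control library exceeded the lowest by 293-fold to 2409-fold. Their lowest values came from 1 to 10 reads in control library 1, which leaves these folds imprecise. In Bmal1;CKO the same 5 genes spanned 1.95-fold to 5.38-fold. Rgs5 and Notch3 spanned 7.40-fold and 1.77-fold in control, and 1.84-fold and 2.23-fold in Bmal1;CKO. Abcc9, Anpep and Myh11 had 0 reads in at least 1 control library.

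**Figure D2:**
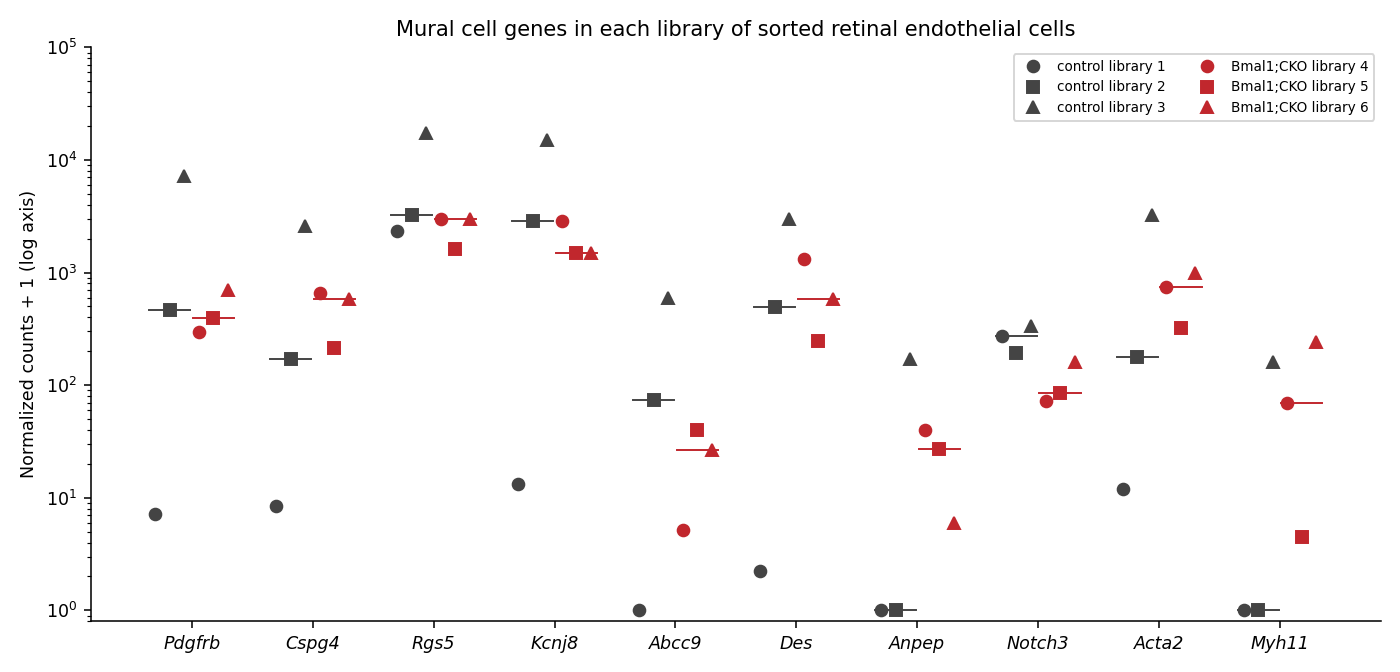
Normalized counts plus 1, on a log axis, of each mural gene in the 3 control libraries (grey) and the 3 Bmal1;CKO libraries (red), with a line at the median of each group. Control library 3 is the highest point for 9 of the 10 genes, and Notch3 is the gene whose 3 red points lie below the 3 grey points.

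Pdgfrb encodes PDGFRβ, the receptor through which pericytes answer endothelial PDGF-B. In GRCm38 it occupies bases 61045150 to 61085061 of chromosome 18 (forward strand), and its annotated exons span 5.478 kb. It had 6.15, 461 and 7164 normalized counts in control libraries 1, 2 and 3, the first of these from 5 reads. In Bmal1;CKO libraries 4, 5 and 6 it had 295, 393 and 695. Control library 1 was the lowest and control library 3 the highest of all, and control library 2 sat inside the mutant range. The control mean was 2544 ± 4007 (SD, n = 3) and the Bmal1;CKO mean 461 ± 209 (SD, n = 3). On the log2(normalized count + 1) scale the change was 0.59 (standard error 2.16, adjusted p = 0.961 by limma-trend), which became -2.07 without control library 1 and 2.91 without control library 3.

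Cspg4 encodes NG2, a membrane proteoglycan of pericytes that binds PDGF and matrix proteins. Control libraries 1, 2 and 3 had 7.38, 169 and 2571 normalized counts, and Bmal1;CKO libraries 4, 5 and 6 had 664, 214 and 584. All 3 mutant libraries lay above control libraries 1 and 2 and below control library 3. The log2 change of 1.505 (standard error 1.84, adjusted p = 0.895 by limma-trend) was -0.60 without control library 1 and 3.54 without control library 3.

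Rgs5, an inhibitor of G protein signalling used widely as a pericyte marker, was the one abundant mural gene in control library 1. It had 2327, 3215 and 17224 normalized counts in control libraries 1, 2 and 3, against 2975, 1626 and 2997 in Bmal1;CKO libraries 4, 5 and 6. Control library 3 was again the highest, but control library 1, with 1891 reads, lay within the mutant range. On the log2 scale the change was -1.05 (standard error 0.72, adjusted p = 0.883 by limma-trend) and stayed negative with each library left out. It was -1.61 when control library 1 was dropped and -0.17 when control library 3 was. Without control library 1 the groups of Rgs5 did not overlap, with lower values in Bmal1;CKO, as was so for 12.8% of all genes.

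Kcnj8 and Abcc9 encode Kir6.1 and SUR2, the pore and the regulatory subunit of the ATP-sensitive potassium channel of pericytes and smooth muscle, and they lie side by side on the reverse strand of chromosome 6. Kcnj8 (142564837 to 142571614) had 12.3, 2885 and 15039 normalized counts in control and 2896, 1505 and 1482 in Bmal1;CKO, in library order. Control libraries 1 and 3 were the extremes and control library 2 lay just under mutant library 4. Abcc9 (142587862 to 142702315) had 0, 73.3 and 597 normalized counts in control and 4.22, 38.9 and 25.5 in Bmal1;CKO. The count of 0 in control library 1 allows up to 3.69 normalized counts, and mutant library 4 had 3 reads. Per kilobase of exon, Kcnj8 exceeded Abcc9 by 82.8-fold to 2255-fold in the 5 libraries with reads on both. The log2 change was 1.16 (standard error 2.25) for Kcnj8 and -1.003 (standard error 2.28) for Abcc9, with adjusted p of 0.925 and 0.933 by limma-trend. Without control library 1 they were -1.82 and -3.58, at unadjusted p of 0.0191 and 0.0194 and an adjusted p of 0.524 each. Without control library 3 they were 3.25 and 1.04.

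Des encodes desmin, the intermediate filament of mural and muscle cells. It had 1.23, 498 and 2964 normalized counts in control and 1329, 247 and 585 in Bmal1;CKO, so control library 2 lay within the mutant range and a single read was found in control library 1. Anpep encodes the membrane peptidase CD13, a surface marker of pericytes that myeloid cells also carry. It had 0 reads in control libraries 1 and 2, 170.1 normalized counts in control library 3, and 39.4, 25.9 and 4.94 in Bmal1;CKO, the last from 6 reads. The log2 changes were 1.96 (standard error 2.37) for Des and 1.75 (standard error 2.17) for Anpep. Without control library 1 they were -1.07 and 0.51. Without control library 3 they were 4.11 and 4.22, the latter at an unadjusted p of 0.0230.

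Notch3 was the mural gene whose groups did not overlap, and control library 1 was not its lowest library. It encodes the Notch receptor of mural cells, which is activated by ligands on endothelium and maintains smooth muscle identity. Control libraries 1, 2 and 3 had 273, 190.2 and 336 normalized counts, and Bmal1;CKO libraries 4, 5 and 6 had 71.7, 83.8 and 159.8. All 3 mutant libraries lay below all 3 control libraries, and control library 1, where Pdgfrb had 5 reads, had 222 reads of Notch3. The means were 266 ± 73.0 in control and 105 ± 47.8 in Bmal1;CKO (SD, n = 3 each). The log2 change was -1.38 (standard error 0.69, 95% interval -2.99 to 0.22), with an adjusted p = 0.883 by limma-trend. Before adjustment limma-trend gave p = 0.0812, and the two-sided exact permutation test gave p = 0.1, the smallest that 3 libraries against 3 allow. The change stayed between -1.73 and -1.16 with each library left out in turn. When every library was rescaled to its endothelial markers it was -0.75, and the groups then overlapped. The gene Gm17276 overlaps 488 bases of Notch3 exon on the opposite strand and had at most 13 reads in a library.

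The promoter of Notch3 is shown because it is the mural gene whose groups did not overlap, and BMAL1 binds the E-box CACGTG. The window runs from 250 bases before to 50 bases after the RefSeq start site on the reverse strand of GRCm38.p6, chr17:32166841-32167140. The letters CACGTG and the related CACGTT were searched on both strands and neither is in it, so no letters are in capitals.
Notch3 promoter: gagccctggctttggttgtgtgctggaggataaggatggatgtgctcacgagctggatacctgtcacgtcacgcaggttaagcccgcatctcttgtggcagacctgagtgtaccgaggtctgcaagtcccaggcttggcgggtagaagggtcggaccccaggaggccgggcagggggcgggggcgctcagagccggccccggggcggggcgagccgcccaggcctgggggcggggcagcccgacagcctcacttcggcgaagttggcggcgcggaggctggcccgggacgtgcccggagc
Of the 10 mural genes, 8 had a RefSeq promoter in the table used, and 0 of the 8 held CACGTG or CACGTT, against 7.15% and 4.68% of all 32851 windows of this length. The core letters TGGGAA bound by RBPJ, the DNA-binding partner of Notch receptors, were in 3 of the 8, Kcnj8, Abcc9 and Acta2, and in 25.6% of all windows. The absence of a motif covers these windows only.

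Acta2 encodes smooth muscle α-actin, and Myh11 the smooth muscle myosin heavy chain. Acta2 had 11.1, 175 and 3249.6 normalized counts in control libraries 1, 2 and 3, and 737, 324 and 984 in Bmal1;CKO libraries 4, 5 and 6. As with Cspg4, all 3 mutant libraries lay above control libraries 1 and 2 and below control library 3. Myh11 had 0 reads in control libraries 1 and 2, 161 normalized counts in control library 3, and 68.9, 3.45 and 241 in Bmal1;CKO. It was the only one of the 10 genes with its highest value in a mutant library, and its 69.6-fold span within Bmal1;CKO was the widest of the 10. The log2 changes were 1.70 (standard error 1.79) for Acta2 and 2.95 (standard error 2.38) for Myh11. Without control library 1 they were -0.29 and 1.73. Without control library 3 they were 3.74 and 5.40, at unadjusted p of 0.0217 and 0.0280 and adjusted p of 0.331 and 0.359 by limma-trend. The promoter of Acta2 (reverse strand of GRCm38.p6, chr19:34255324-34255623, same window) is shown for its TGGGAA, in capitals. These letters begin 27 bases before the listed RefSeq start site, and the TATA-like letters ctatataa lie after that site.
Acta2 promoter: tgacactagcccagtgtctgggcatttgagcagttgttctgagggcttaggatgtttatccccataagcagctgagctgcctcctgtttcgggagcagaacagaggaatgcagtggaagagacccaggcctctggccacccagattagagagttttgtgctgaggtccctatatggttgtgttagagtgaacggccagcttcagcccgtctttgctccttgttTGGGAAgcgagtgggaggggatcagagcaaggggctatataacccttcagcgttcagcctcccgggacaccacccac
The CArG box, the element bound by SRF in smooth muscle genes, was searched by its strict consensus (CC, then only A or T, then GG). On both strands it was in 0 of the 8 windows and 1.63% of all windows. Stretches that differ from the consensus by a letter were not counted. The Acta2 window holds such stretches, ccctatatgg and ccttgtttgg, and the latter ends in the TGG of TGGGAA. The windows are therefore not shown to lack SRF sites.

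Comparing the genotypes across the 10 genes, 0 reached FDR < 0.05 by limma-trend, where 0.0% of all tested genes did. By edgeR 0 of the 10 passed (0.0% of all genes) and by DESeq2 0 (0.327%). At an unadjusted p under 0.05 there were 0 of the 10 by limma-trend (4.92% of all genes, 1.75% lower and 3.17% higher in Bmal1;CKO) and 0 by edgeR (1.9% of all genes lower). By DESeq2 there were 2, Rgs5 and Notch3, both lower, as were 3.34% of all genes. Groups did not overlap for 1 of the 10, and for 11.2% of all genes. That gene was Notch3, which was lower in Bmal1;CKO, as were 4.54% of all genes. Groups did not overlap with higher values in Bmal1;CKO for 0 of the 10 and for 6.62% of all genes.

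The direction for the set depended on the scale. By limma-trend, which averages log2 values, 7 genes had a log2 change above 0 and 3 below it, and the median was 1.33, against 0.11 over all genes and 43.4% of all genes lower. By arithmetic means, 9 of the 10 were lower in Bmal1;CKO, and edgeR, which compares such means, gave a median of -1.33 with 9 lower. Without control library 1, 8 of the 10 were lower by limma-trend, with a median of -1.21. Without control library 3, 8 were higher, with a median of 3.39. Rgs5 and Notch3 were lower, and Myh11 higher, under all of these settings.

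**Figure D3:**
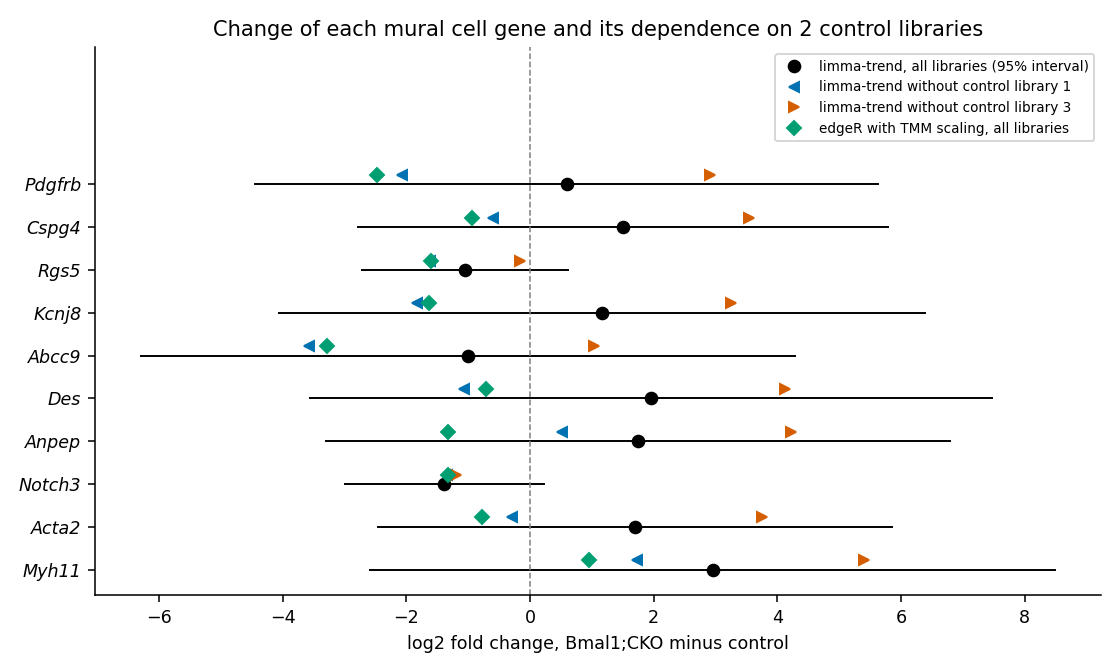
The log2 fold change of each mural gene, Bmal1;CKO minus control, by limma-trend with its 95% interval (black), by limma-trend without control library 1 (blue) or without control library 3 (orange), and by edgeR with TMM scaling (green). All 10 intervals cross 0, and for 6 genes the blue and orange marks lie on opposite sides of 0.

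Levels were compared between the genes per kilobase of exon within Bmal1;CKO, where the libraries were closer together. Rgs5 had a median of 654 normalized counts per kb (358 to 659) and Kcnj8 591 (582 to 1137). Acta2 followed with 336 (147 to 448), below Kcnj8 in every library. The next levels per kb were 156 for Des, 71.7 for Pdgfrb, 49.0 for Cspg4, 10.4 for Notch3, 9.07 for Myh11, 6.27 for Anpep and 3.05 for Abcc9. Apart from Kcnj8 and Acta2, each gene's range over the 3 libraries overlapped that of its neighbour in this order. Rgs5 and Kcnj8 together made up 59.8% to 74.5% of the summed level per kb in Bmal1;CKO, 84.3% in control library 2 and 71.0% in control library 3. In control library 1 Rgs5 alone made up 91.8% and Notch3 6.06%, and the ratio of Notch3 to Pdgfrb per kb was 30.1 there, against 0.0317 to 0.279 in the other 5 libraries.

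A further list of 25 pericyte genes was followed, of which 24 were tested, 10 of them above and 14 below 0 on the log2 scale with a median of -0.14. None passed an unadjusted p under 0.05 by limma-trend, and 0 had groups without overlap. Control library 3 was the highest for 18 of the 25, and for 16.8% of all tested genes. Control library 1 alone was the lowest for 9 of the 25, and for 31.8% of all tested genes. The highest of these genes in mean were Mcam, an adhesion molecule also found on endothelium, with 4763 to 16905 normalized counts, the transcription factor Tbx2, with 8015 to 15973, and the gap junction gene Gja4, with 3848 to 10771. Which cells the RNA of Mcam, Tbx2 and Gja4 came from was not tested. The following were chosen after their values were seen. Higd1b, a mitochondrial gene enriched in pericytes, had 429 normalized counts in control library 1, 812 and 4119.8 in control libraries 2 and 3, and 493 to 809 in Bmal1;CKO. Vtn, encoding vitronectin, had 2525 in control library 1 and 2325 to 9395 elsewhere. In control library 1, 9 of the 25 genes had fewer than 10 reads, among them P2ry14, Ednra, Rgs4 and Heyl, and the other 16, with Higd1b and Vtn, had 10 or more. In the other 5 libraries, 0 to 4 of the 25 had fewer than 10 reads.

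Of 16 contractile genes and their activators, 12 were tested, 6 higher and 6 lower, with a median of -0.03 and 0 at an unadjusted p under 0.05. The most abundant were Cald1 (10906 to 21224 normalized counts), Tpm1 and Smtn (2358 to 8783), which many cell types use. Tpm1, a tropomyosin, had 12368, 9893 and 12119 in control and 8897, 6623 and 8762 in Bmal1;CKO. Its groups thus did not overlap, and 4.54% of all tested genes were lower in this way. The log2 change of Tpm1 was -0.51 (standard error 0.24, adjusted p = 0.883 by limma-trend). In at least 1 library, 7 of the 16 had fewer than 10 reads, and levels differed widely between the smooth muscle markers, of which those named next were chosen after their values were seen. Myl9, a myosin light chain, had 632 normalized counts in control library 1, 2343 and 11898 in control libraries 2 and 3, and 1972 to 4295 in Bmal1;CKO. Tagln, encoding transgelin, had 0 to 13.0 normalized counts. Cnn1, encoding calponin and named because its groups did not overlap, had 0 reads in all control libraries and 30.9, 4.32 and 3.30 normalized counts in Bmal1;CKO, and was not tested. Acta2 was thus found at 175 to 3249.6 normalized counts in 5 libraries in which Tagln did not exceed 13.0 and Cnn1 did not exceed 30.9.

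Of 30 genes that signal between endothelium and mural cells, all were tested, 13 higher and 17 lower, with a median of -0.06. The most abundant were Eng (5197 to 15124 normalized counts), Acvrl1 (5830 to 10897) and S1pr1 (7854 to 16501), receptors of TGF-β family ligands and of sphingosine-1-phosphate. Notch1, the main endothelial Notch receptor, had 799, 1219 and 2084 in control and 2398, 2316 and 3219 in Bmal1;CKO. Its groups did not overlap, in the opposite direction to Notch3, and 6.62% of all tested genes were higher in this way. The log2 change of Notch1 was 1.05 (standard error 0.40, unadjusted p = 0.0332, adjusted p = 0.883 by limma-trend). It was the 1 gene of the 30 at an unadjusted p under 0.05, which 4.92% of all genes reached. Chosen after its values were seen, Pdgfb, the endothelial ligand of Pdgfrb, had 4946, 2034 and 5504 in control and 3340.3, 2733 and 5229 in Bmal1;CKO, a log2 change of -0.07 (standard error 0.44). The Notch effector Heyl, a gene of the pericyte list likewise chosen after its values were seen, had 4.92, 1.86 and 3602 in control and 935, 448 and 984 in Bmal1;CKO, so that all 3 mutant libraries lay above control libraries 1 and 2 and below control library 3, as for Cspg4 and Acta2.

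Markers of other cell types were read beside the mural genes. The 14 endothelial markers were led by Cldn5, Esam and Ramp2, with 14 of 14 lower, against 43.4% of all genes. Their median log2 change of -0.61 ran from -0.93 without Bmal1;CKO library 6 to -0.21 without control library 1. The groups of 1 of the 14, Vwf, did not overlap (3188 to 5069 in control, 1174 to 2876 in Bmal1;CKO), as for 11.2% of all tested genes. The endothelial sum was highest in control library 1, where the mural sum was lowest. The 10 fibroblast markers summed to 1572 to 3883 normalized counts in control and 1372 to 2291 in Bmal1;CKO, with the highest sum in control library 3, and Lum was at 0 in all 6 libraries and Dpt at 0 in 5. Their leading genes were Fbln1, Pdgfra and Col3a1, and Col3a1 had 0, 65.0 and 950.3 in control libraries 1, 2 and 3. The groups of Col1a2 (239 to 352 in control, 63.9 to 169 in Bmal1;CKO) and of Mfap5 (0 reads in control, 4.12 to 160.3 in Bmal1;CKO) did not overlap. Mfap5 was not tested, and Col1a2 was lower, as were 4.54% of all tested genes without overlap. The 7 astrocyte markers, led by Gfap, Gja1 and Pdgfra, summed to 2199, 5559 and 10874 in control libraries 1, 2 and 3 and to 3586 to 4791 in Bmal1;CKO. They thus had the order of the mural genes in control, with a median log2 change of -0.43.

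The 10 skeletal muscle markers, led by Tnni2, Acta1 and Mylpf, summed to 1243 to 3305 in control and 1329 to 2601 in Bmal1;CKO. They were lowest in control library 3, with Tnnt3 and Myl1 at 3 reads or fewer in 5 and 6 libraries. The 12 rod markers, led by Pde6g, Prph2 and Rom1, summed to 669225 to 1064100. Of these, 1, Cnga1, was lower without overlap (6148 to 12999 in control, 1831 to 5258 in Bmal1;CKO), as were 4.54% of all tested genes. The 9 Müller glia markers were dominated by Apoe, which microglia also express, and were otherwise led by Vim and Car2. Among them Sox9 was higher in all Bmal1;CKO libraries (896 to 2696 in control, 3314 to 6463 in Bmal1;CKO), as were 6.62% of all tested genes. The 9 microglia markers were led by C1qa, C1qb and C1qc. The part of these cell types in the mural values was not tested.

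**Figure D4:**
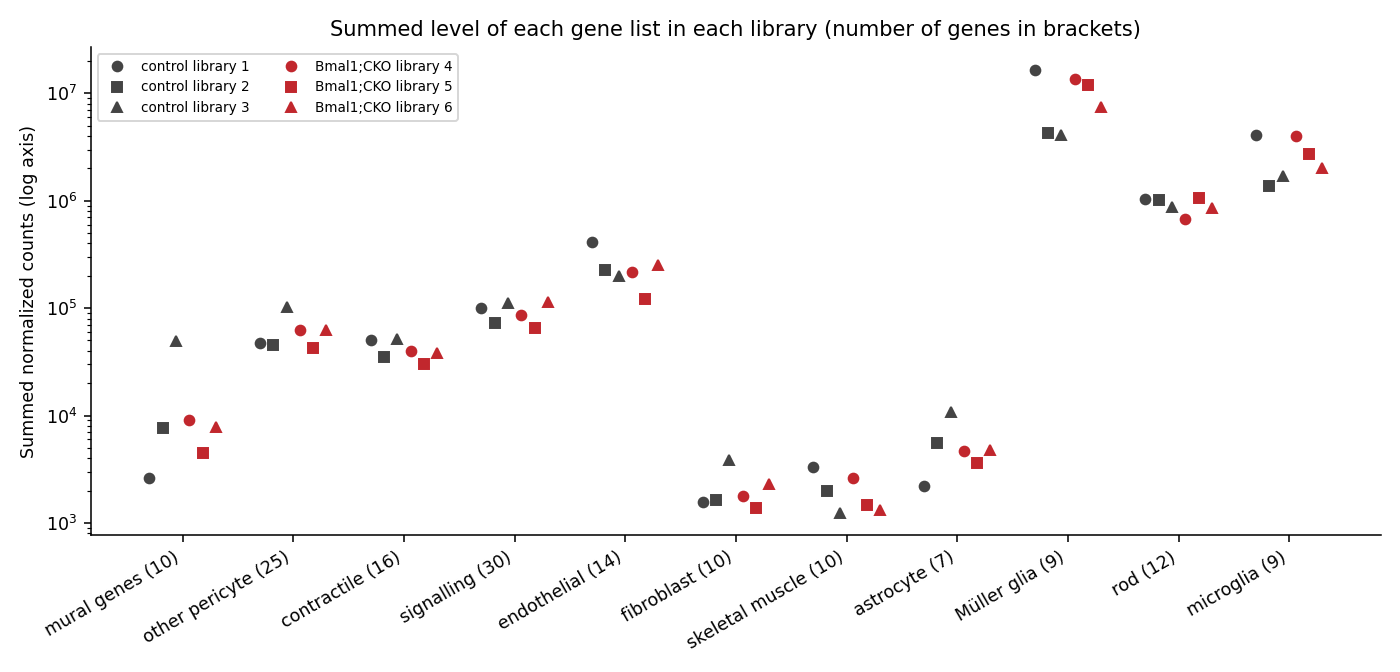
Summed normalized counts, on a log axis, of the 10 mural genes and of 10 other gene lists in each library, with control in grey and Bmal1;CKO in red. The mural sum ran from 2638 to 49474 within control, whereas the endothelial sum ran from 199367 to 411757 within control, with control library 1 the highest.

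Likeness across the 6 libraries was measured as Pearson's r to the mean centred log2 level of the 10 mural genes, as a description in which control libraries 1 and 3 carry most of the spread. That mean was -4.07, -0.48 and 3.33 in control libraries 1, 2 and 3 and 0.62, -0.19 and 0.80 in Bmal1;CKO libraries 4, 5 and 6. The 8 other genes most like it were Copg1, Gm7701, Stradb, Alas2, Gm2423, 2410002F23Rik, Abcf2 and Nap1l4, with r of 0.990 to 0.995, and none of them was in a mural list. An r over 0.9 was found for 3.25% of all other tested genes, for 4 of the 24 other pericyte genes, 2 of the 12 contractile genes, 3 of the 30 signalling genes, 2 of the 5 fibroblast and 1 of the 5 astrocyte markers tested. It was found for 0 of the endothelial, microglia, rod, Müller glia and skeletal muscle markers. The lists share genes, so a gene can be counted in several of them. Pdgfra is in the signalling, fibroblast and astrocyte lists, and Ednra in the pericyte and signalling lists. Each mural gene was also set against the mean of the other 9. For Cspg4, Acta2 and Pdgfrb r was 0.986, 0.982 and 0.969, and without control library 1 it was 0.964, 0.945 and 0.901. For Rgs5 it was 0.677 and, without control library 1, 0.908. For Notch3 it was -0.06 and, without control library 1, 0.61.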

How the data were processed

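VECs were profiled from retinas of 3 control and 3 Bmal1;CKO animals, with Smart v4 amplification and Nextera XT libraries. Per the paper and the labels, the authors used FastQC, Trimmomatic, Bowtie with mm10 (GRCm38) as the genome, and featureCounts for gene counts, and whether strand was used is not given in the sources used here. The deposited signal is a normalized count, scaled in each library by a DESeq2 size factor. The deposited fold changes and p-values were not used. Dividing each column by its smallest step gave whole reads for 100% of values (within 0.01 of a read). Where a gene had 0 reads, up to 3 remain possible by counting error alone. Columns name the genotype but not the animal, so the 3 columns of a group were its replicates, and p-values measure the spread between these libraries.

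Genes reaching 10 reads in 3 or more libraries, 20459 in all, were tested with limma-trend (limma 3.58.1, R 4.3.3) on log2(normalized count + 1), genotype only, with Benjamini-Hochberg adjustment, and all 10 mural genes passed the filter. The edgeR test on the recovered reads called 0 genes at FDR < 0.05. The alternatives were edgeR 4.0.16 (quasi-likelihood, TMM or deposited size factors), DESeq2 1.42.0 without shrinkage, limma-voom, TMM-scaled log2 CPM, other pseudocounts and filters, scaling to the endothelial markers, and each library left out. The tests were also run on simulated counts with the same dispersion for every gene and no outlying library. That check does not cover genes that differ among control libraries as widely as most of the mural genes did. Coordinates and exon lengths came from GENCODE M21 (GRCm38), which held 55227 of the 55487 gene identifiers, and promoters from RefSeq (GRCm38.p6). The mural genes and the lists were chosen with earlier results of these data known. Named genes were the 10, the 3 most abundant of each list, those of a list whose groups did not overlap, and the 8 most alike in pattern. Higd1b, Vtn, P2ry14, Ednra, Rgs4, Heyl, Pdgfb, Myl9, Tagln, Lum, Dpt, Tnnt3 and Myl1 fall outside this rule and were named after their values were seen.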

Additional observations from a re-analysis of the deposited data

How the results depend on the processing

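No paired analysis was possible because the columns of the table do not name single animals and their numbers go against those of the labels. The number of mural genes passing FDR < 0.05 was 0 under all 16 alternatives, and the log2 changes of Rgs5, Notch3 and Myh11 kept their sign in every alternative that tested them, 16 for Rgs5 and Notch3 and 15 for Myh11. Values of low genes were limited by counts, since 7 of the 10 genes had fewer than 10 reads in at least 1 library.

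The median log2 change of the 10 genes was -1.33 by edgeR with TMM scaling, -1.31 by edgeR with the deposited size factors and -1.31 by DESeq2, each with 9 genes below 0. In that order of tools, the change was -2.48, -2.46 and -2.46 for Pdgfrb, -0.94, -0.91 and -0.91 for Cspg4, and -1.64, -1.61 and -1.61 for Kcnj8. It was -0.77, -0.75 and -0.75 for Acta2, -0.72, -0.68 and -0.68 for Des, and -1.32, -1.28 and -1.28 for Anpep. These tools compare arithmetic means, which control library 3 dominates. DESeq2 called 67 genes at FDR < 0.05. It put 2 mural genes at an unadjusted p under 0.05, and 5.94% of all genes. With at least 10 reads required in every library, 3 mural genes remained, with a median of -1.05. Of these, 1 (Notch3) was at an unadjusted p under 0.05 by limma-trend, as were 4.85% of all genes under this filter. There, 1 gene in all passed FDR < 0.05. With at least 1 read in total, 1 gene passed FDR < 0.05. With scaling to the endothelial markers, 1 gene passed and 0 mural genes were lower without overlap, while the median of all genes was 0.73.

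Leaving out each library in turn gave 0 to 6 genes at FDR < 0.05, 0 to 4 mural genes at an unadjusted p under 0.05, 2 to 8 mural genes below 0, 1 to 3 lower without overlap, and medians of -1.21 to 3.39. Without control library 1, 3 mural genes were at an unadjusted p under 0.05, as were 8.65% of all genes, and 3 were lower without overlap (12.8% of all). Without control library 3, 4 were at an unadjusted p under 0.05, as were 11.9% of all genes, and the same 4 (Cspg4, Acta2, Anpep and Myh11) were higher without overlap (16.7% of all). The log2 changes ran from -2.07 to 2.91 for Pdgfrb, -0.60 to 3.54 for Cspg4, -1.82 to 3.25 for Kcnj8, -3.58 to 1.04 for Abcc9, -0.29 to 3.74 for Acta2 and -1.07 to 4.11 for Des, with the lowest value in each case without control library 1 and the highest without control library 3. They ran from 0.51 to 4.22 for Anpep and from 1.70 to 5.40 for Myh11. The list medians ran from -0.49 to 0.38 for the other pericyte genes, -0.35 to 0.30 for the contractile genes, -0.26 to 0.21 for the signalling genes, -0.85 to 1.015 for fibroblasts, -0.49 to 0.036 for rods, -0.85 to 0.43 for astrocytes and -0.33 to 0.30 for skeletal muscle.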
